A study of Danio rerio with 6 samples.

Results

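The genes described here are 5 zebrafish genes of the intermediate mesoderm and of the pronephros, the embryonic kidney: osr1, pax2a, pax8, hnf1ba and atp1a1a.4. They were chosen by name, with earlier results of these data known. All 5 were found among the 13274 genes that the deposited table gives. The RNA came from pools of 30 to 60 whole embryos. Every embryo had been exposed to SB505124, a small molecule that blocks the receptor kinases ALK4, ALK5 and ALK7, through which Nodal, activin and TGF-beta act. Exposure started either at sphere stage (sphere-treated) or later, at 30% epiboly (epiboly-treated), and embryos of each kind were collected at shield, tailbud and 7-somite stage. This gives 6 groups with 1 labelled sample each, from a series on transcripts connected with neural tube closure. The dose of SB505124 is not given in the sources used here. No untreated embryos were analysed here, so a low value in sphere-treated embryos is low relative to epiboly-treated ones, which also had inhibitor.

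Intermediate mesoderm forms in a strip between the paraxial mesoderm, which makes somites, and the lateral plate, which makes heart, blood and vessels. In zebrafish it gives rise to a pair of pronephric nephrons, each with a filter of podocytes, a tubule divided into segments and a duct. Zinc-finger, paired-box and homeodomain transcription factors mark the field in turn, and the tubule then makes ion pumps and transporters. Nodal signals pattern the mesendoderm from which this tissue comes. None of the 5 genes is confined to kidney: pax2a also marks the midbrain-hindbrain boundary and the ear, pax8 the ear and that boundary, hnf1ba the caudal hindbrain and the endoderm, and osr1 early mesendoderm. In RNA of whole embryos, fewer cells of a type and less RNA per cell cannot be told apart, nor can the kidney share of a transcript be separated from its other sites.

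Each value is the authors' upper-quartile normalized (UQN) group mean with its standard error (SE), a scale that permits comparison of 1 gene between groups but not of levels between genes, as transcript length was not taken out. The 6 group means summed over all records lie between 15311014 and 21048013. The SEs of whole-number values fit 3 values per mean (11992 of 11992 SEs between 0 and 5), so n is taken as 3, although what separates these values is not stated and may be technical. Each log2 ratio puts the sphere-treated mean on top of the epiboly-treated one after 5 is added to both, which understates changes of low genes, and calls use limma-moderated p-values adjusted over all 13274 genes, with a threshold of 0.05. All 5 genes passed the floor of the table, in which every record has a group mean of at least 101. That floor was passed only at the later stages by pax2a and pax8. Of the other genes named below, lhx1a, foxj1a, foxa2, sox17, tbx1, tal1, gfi1aa, fli1 and elapor1 passed it only in epiboly-treated groups. Their lower values in sphere-treated embryos are therefore partly fixed by the floor, and the lists below hold other such genes.

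osr1 encodes a zinc-finger factor that is among the first markers of the field. At shield its mean was 123 ± 33.4 in sphere-treated embryos and 241 ± 4.10 in epiboly-treated embryos. At tailbud the means were 25 ± 2.33 in sphere-treated and 582 ± 49.2 in epiboly-treated embryos. By 7-somite they were 66 ± 19.7 in sphere-treated and 294 ± 14.8 in epiboly-treated embryos. The sphere-treated mean was thus the lower at each stage, and at tailbud it stood at 4.30% ± 0.541 (SE) of the epiboly-treated one. In the order of levels, the 3 epiboly-treated groups came first and were separate from one another by intervals of 2 SE, while each sphere-treated group overlapped the next one in order.

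pax2a and pax8 encode paired-box factors of 1 family, which act with partly shared roles in zebrafish kidney and ear. At shield pax2a was near the bottom of the scale, with 8 ± 1.53 in sphere-treated and 3 ± 0.667 in epiboly-treated embryos. At tailbud it stood at 613 ± 280 in sphere-treated and 1154 ± 118 in epiboly-treated embryos. At 7-somite the means were 1569 ± 113 in sphere-treated and 1573 ± 69.1 in epiboly-treated embryos. The 2 SE intervals of sphere- and epiboly-treated embryos overlapped at tailbud and at 7-somite, and stood apart at shield.

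pax8 also began near 0, with 8 ± 2.85 in sphere-treated and 4 ± 0.577 in epiboly-treated shield embryos. At tailbud the means parted, at 39 ± 9.94 in sphere-treated and 363 ± 14.98 in epiboly-treated embryos. At 7-somite pax8 was at 533 ± 82.0 in sphere-treated and 740 ± 30.3 in epiboly-treated embryos. Tailbud was the stage at which the pax8 intervals of sphere- and epiboly-treated embryos stood apart by 2 SE.

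hnf1ba encodes a homeodomain factor that takes part in setting tubule segments. It was at 756 ± 69.7 in sphere-treated and 1075 ± 53.4 in epiboly-treated embryos at shield. At tailbud it was at 738 ± 104 in sphere-treated and 1993 ± 106 in epiboly-treated embryos, and at 7-somite at 1316 ± 238 in sphere-treated and 1493 ± 90.7 in epiboly-treated embryos. The highest group was epiboly-treated tailbud, and the sphere-treated shield and tailbud groups were the lowest and overlapped.

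atp1a1a.4 encodes an alpha subunit of the Na,K-ATPase, the pump that drives ion uptake along the tubule. Its means were 133 ± 16.9 in sphere-treated and 168 ± 5.81 in epiboly-treated embryos at shield. They were 108 ± 2.33 in sphere-treated and 84 ± 4.67 in epiboly-treated embryos at tailbud, and 133 ± 15.4 in sphere-treated and 104 ± 6.36 in epiboly-treated embryos at 7-somite. Neighbours in the order of its 6 levels overlapped in every case by 2 SE, while the sphere-treated and epiboly-treated tailbud groups, which are not neighbours in it, stood apart. On the RefSeq gene order it is followed by the copies atp1a1a.1, atp1a1a.2, atp1a1a.3 and atp1a1a.5, so reads may be shared between copies and its separate value is uncertain.

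**Figure D1:**
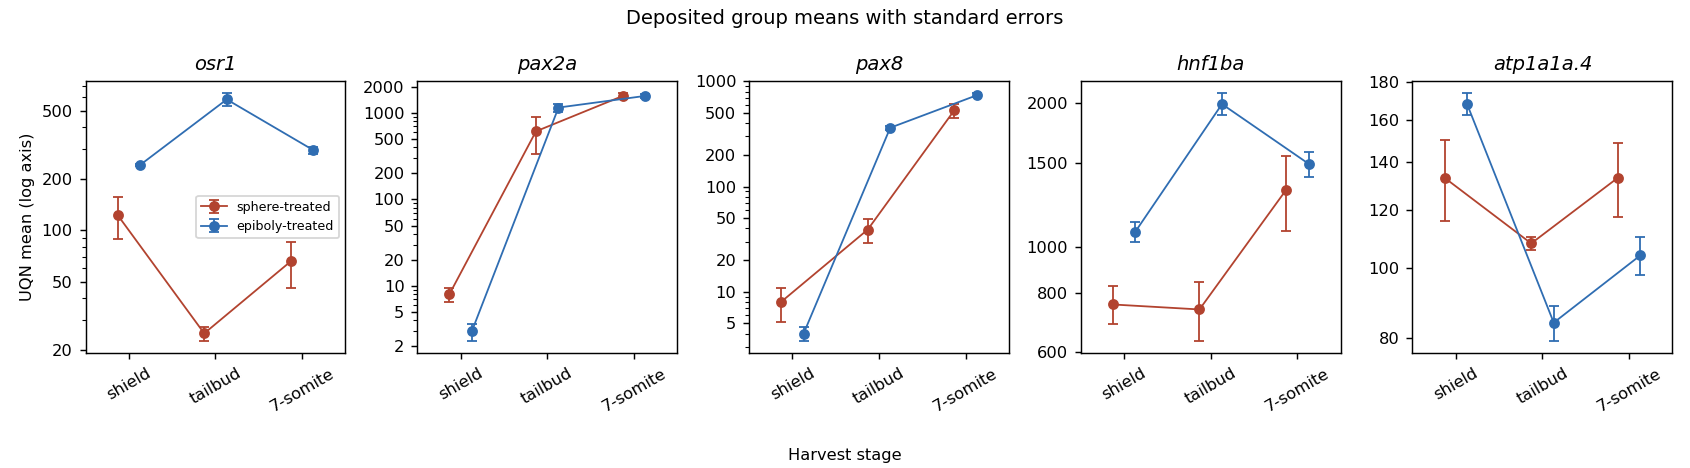
UQN mean of each gene (log axis) at shield, tailbud and 7-somite stage in sphere-treated (red) and epiboly-treated (blue) embryos, with the deposited standard errors as bars. osr1 is lower in sphere-treated embryos at all 3 stages, pax8 parts at tailbud (39 against 363), and pax2a ends at 1569 and 1573.

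The first comparison set sphere-treated against epiboly-treated embryos at shield, when gastrulation has begun and before pax2a and pax8 are at appreciable levels. In the comparisons of sphere- with epiboly-treated embryos, the time at which exposure started cannot be told apart from its length. A gene that fell or rose in them was lower or higher in sphere- than in epiboly-treated embryos of the same stage. It need not have changed that way over time. Of the 5 genes 1 was called higher and 1 lower, against a background of 20.5% of all genes higher and 19.9% lower. hnf1ba fell by 0.51 on the log2 scale (SE 0.13, 95% interval -0.82 to -0.19, limma-moderated adjusted p = 0.029). pax2a rose by 0.70 (SE 0.18, interval 0.28 to 1.13, limma-moderated adjusted p = 0.0265), but between means of 8 and 3. With the spread pooled over all groups both calls are lost (limma-moderated adjusted p = 0.153 for pax2a and 0.0622 for hnf1ba). Without moderation of the variance neither call holds. The osr1 log2 ratio was -0.94 (SE 0.31) and lay just past the threshold (limma-moderated adjusted p = 0.052). It passed with a trend on the mean in the variance, with the pooled spread, with a pseudocount of 20 and with equal totals (limma-moderated adjusted p = 0.0387, 0.0247, 0.043 and 0.0466), and without limma's moderation its adjusted p was 0.126. Neither pax8 (log2 ratio 0.53, interval -0.13 to 1.19) nor atp1a1a.4 (log2 ratio -0.33, interval -0.71 to 0.05) passed. A count of 2 in 5 is near the background at this stage and is no result about these genes.

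At tailbud, when gastrulation ends, 3 of the 5 genes were lower in sphere- than in epiboly-treated embryos and 0 were higher. Of all genes 1.74% were lower and 0.249% higher. osr1 fell by 4.29 on the log2 scale (SE 0.15, interval -4.64 to -3.94, limma-moderated adjusted p = 0.000128), which is 19.6-fold on that scale and ranks it 11 from the bottom of 13274 genes. pax8 fell by 3.06 (SE 0.27, limma-moderated adjusted p = 0.0025), or 8.36-fold. hnf1ba fell by 1.43 (SE 0.18, limma-moderated adjusted p = 0.0135), or 2.69-fold. The 3 regulators thus fell by unequal amounts.

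pax2a did not pass at tailbud. Its log2 ratio was -0.91 with an SE of 0.53 and an interval from -2.17 to 0.35 (limma-moderated adjusted p = 0.485), so a fall as large as that of hnf1ba lies within its interval. The SE of its sphere-treated mean was 45.7% of that mean, larger than for 99.8% of records at 100 or more in the same group. atp1a1a.4 had a log2 ratio of 0.34 (interval 0.11 to 0.58, limma-moderated adjusted p = 0.178). The median log2 ratio of the 5 genes was -1.43, against -0.0088 over all genes. The hnf1ba and pax8 calls are lost without moderation of the variance (Benjamini-Hochberg adjusted p = 0.145 and 0.0933 without limma's moderation), a setting in which 42 of all genes are called.

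**Figure D2:**
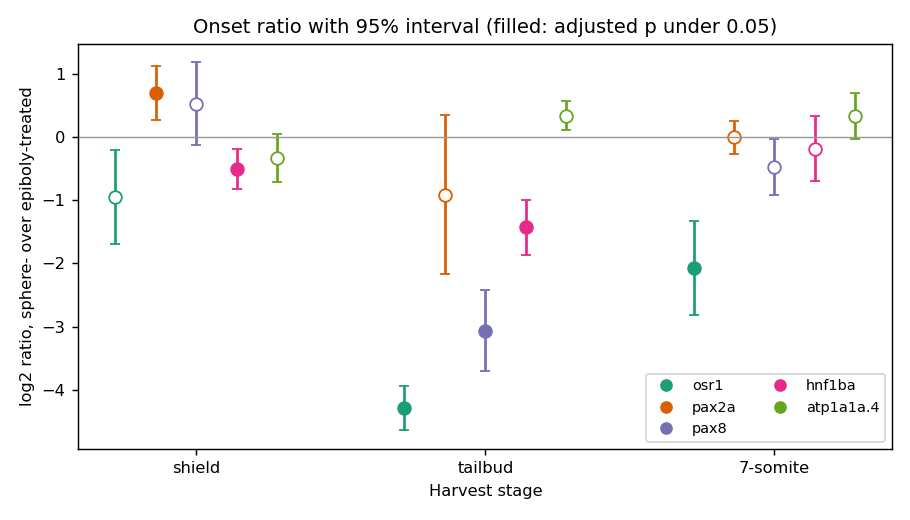
log2 ratio of sphere- over epiboly-treated means at each harvest stage, with 95% intervals. Filled points passed an adjusted p of 0.05. osr1, pax8 and hnf1ba lie below 0 at tailbud, and osr1 alone of the 5 is filled at 7-somite (-2.07).

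At 7-somite 1 of the 5 genes fell and 0 rose, while 8.81% of all genes fell and 5.91% rose. This gene was osr1, which fell by 2.07 on the log2 scale (SE 0.32, interval -2.82 to -1.33, limma-moderated adjusted p = 0.0142), or 4.21-fold. Its call is lost without limma's moderation of the variance (adjusted p = 0.0668). pax8 had a log2 ratio of -0.47 (interval -0.91 to -0.03, limma-moderated adjusted p = 0.123) and hnf1ba one of -0.18 (interval -0.70 to 0.34, limma-moderated adjusted p = 0.588). The pax2a log2 ratio was -0.0037, with an interval from -0.27 to 0.27, which leaves out a 2-fold difference in either direction. For atp1a1a.4 the log2 ratio was 0.34 (interval -0.02 to 0.70, limma-moderated adjusted p = 0.161). Of the 231 genes called lower at tailbud, 100 were also called lower at 7-somite, which is 43.3% of the first list and 8.55% of the 1169 genes of the second. osr1 is in both lists, and pax8 and hnf1ba are in the first.

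Whether the ratios differ between stages was tested directly. From shield to tailbud the log2 ratio dropped for 3 of the 5 genes and rose for 1, while 12% of all genes had a drop and 8.02% a rise. The difference was -3.35 for osr1 (SE 0.37, limma-moderated adjusted p = 0.000543), -3.59 for pax8 (SE 0.41, limma-moderated adjusted p = 0.000753) and -0.92 for hnf1ba (SE 0.24, limma-moderated adjusted p = 0.0266). For atp1a1a.4 it rose by 0.67 (SE 0.19, limma-moderated adjusted p = 0.0346), since its ratio was below 0 at shield and above 0 at tailbud. The difference of -1.61 for pax2a did not pass (limma-moderated adjusted p = 0.0857). From tailbud to 7-somite the log2 ratio rose for 2 of the 5 genes and dropped for 0, with 1.31% of all genes rising and 0.716% dropping. These were pax8, by 2.59 (SE 0.36, limma-moderated adjusted p = 0.00615), and osr1, by 2.22 (SE 0.39, limma-moderated adjusted p = 0.0196). For hnf1ba the difference of 1.25 missed the threshold (limma-moderated adjusted p = 0.0709). Without limma's moderation, osr1 and pax8 remain called for the first difference (hnf1ba and atp1a1a.4 then have adjusted p = 0.0517 and 0.059) and pax8 alone for the second (osr1 then has adjusted p = 0.056). The ratios of osr1 and pax8 were furthest below 0 at tailbud.

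A test that takes the 6 labelled samples as its units, limma on log2(mean + 5) with stage as a block, called 0 of the 5 genes and 0 of all genes. The fit has few residual degrees of freedom and therefore little power. Its residual is the change of the onset ratio between stages, so a gene whose ratio differs between stages can hardly pass. The log2 ratios over the 3 stages were -2.44 for osr1 and -0.70 for hnf1ba. osr1 was lower in sphere-treated embryos in 3 of 3 stages (limma adjusted p = 0.64) and hnf1ba likewise in 3 of 3 (limma adjusted p = 0.675). pax8 had a log2 ratio of -1.001 in this fit, pax2a of -0.07 and atp1a1a.4 of 0.12.

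The steps between stages show how each gene was deployed over time. From shield to tailbud in sphere-treated embryos, 2 of the 5 genes rose and 1 fell, against 20% of all genes higher and 43.3% lower. In epiboly-treated embryos 4 rose and 1 fell over this step, against 32.6% of all genes higher and 48% lower. pax2a rose by 5.57 on the log2 scale in sphere-treated and by 7.18 in epiboly-treated embryos (limma-moderated adjusted p = 0.000355 and 2.15e-07). pax8 rose by 1.76 in sphere-treated and by 5.35 in epiboly-treated embryos (limma-moderated adjusted p = 0.00598 and 1.7e-07). These rises are partly fixed by the floor of the table, since both genes were at means of 3 to 8 at shield and entered the table through a later stage.

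osr1 moved in opposite directions over that step. In sphere-treated embryos it fell by 2.09 (limma-moderated adjusted p = 0.00175), and in epiboly-treated embryos it rose by 1.25 (limma-moderated adjusted p = 4.25e-05). hnf1ba had a log2 change of -0.03 in sphere-treated embryos (interval -0.52 to 0.45) and rose by 0.89 in epiboly-treated embryos (limma-moderated adjusted p = 0.000136). Its sphere-treated change is above 0 under other scalings of the groups, 0.20 with TMM factors and 0.28 with equal totals. atp1a1a.4 had a log2 change of -0.29 in sphere-treated embryos (interval -0.67 to 0.10) and fell by 0.96 in epiboly-treated embryos (limma-moderated adjusted p = 5.47e-05). The median log2 change of all genes over this step was -0.23 in sphere-treated and -0.19 in epiboly-treated embryos, against 0.0099 and 0.02 with TMM factors. Relative to this shift the atp1a1a.4 changes are smaller.

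From tailbud to 7-somite in sphere-treated embryos, 3 of the 5 genes rose and 0 fell, against 24% of all genes higher and 26.5% lower. These were pax8 by 3.61 (limma-moderated adjusted p = 0.000634), osr1 by 1.24 (limma-moderated adjusted p = 0.0207) and hnf1ba by 0.83 (limma-moderated adjusted p = 0.0384). In epiboly-treated embryos 2 rose and 2 fell, against 21.6% of all genes higher and 22.4% lower. pax8 rose by 1.02 and pax2a by 0.45 (limma-moderated adjusted p = 0.000303 and 0.0385), while osr1 fell by 0.97 and hnf1ba by 0.42 (limma-moderated adjusted p = 0.0014 and 0.0217). Without limma's moderation the sphere-treated calls of osr1 and hnf1ba are lost (adjusted p = 0.0794 and 0.112). In epiboly-treated embryos those of hnf1ba and pax2a are lost without limma's moderation (adjusted p = 0.0591 and 0.102) and with the pooled spread (limma-moderated adjusted p = 0.106 and 0.345). pax2a in sphere-treated embryos had a log2 change of 1.35 that did not pass (limma-moderated adjusted p = 0.0672).

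In the authors' deposited table, which calls genes at a 50% change, osr1 is marked as differing at shield, tailbud and 7-somite, and pax8 at tailbud. The other genes are marked at no stage, hnf1ba at tailbud included, although the authors' deposited table gives it an epiboly-to-sphere ratio of 2.698 there. The authors' deposited table marks 14.4% of all records at shield, 1.63% at tailbud and 1.35% at 7-somite. Its ratio has epiboly-treated embryos on top, and for osr1 it is 1.95, 22.4 and 4.40 at the 3 stages.

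The precision of these values was uneven. The relative SE of osr1 was 27.2% in sphere-treated and 1.70% in epiboly-treated embryos at shield, and 29.8% in sphere-treated and 5.05% in epiboly-treated embryos at 7-somite. For pax8 it was 25.5% in sphere-treated and 4.13% in epiboly-treated embryos at tailbud. hnf1ba had 18.1% in sphere-treated and 6.08% in epiboly-treated embryos at 7-somite. The median relative SE of records at 100 or more was 5.18%, 5.15% and 4.73% in sphere-treated embryos at shield, tailbud and 7-somite, and 2.46%, 4.64% and 3.74% in epiboly-treated embryos. Over the 5 genes and 3 stages, the relative SE was larger in sphere-treated than in epiboly-treated embryos in 13 of 15 pairs. The same count was not made over all genes, and the medians above were also larger in sphere-treated embryos at each stage. The count is therefore no result about these genes.

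**Figure D3:**
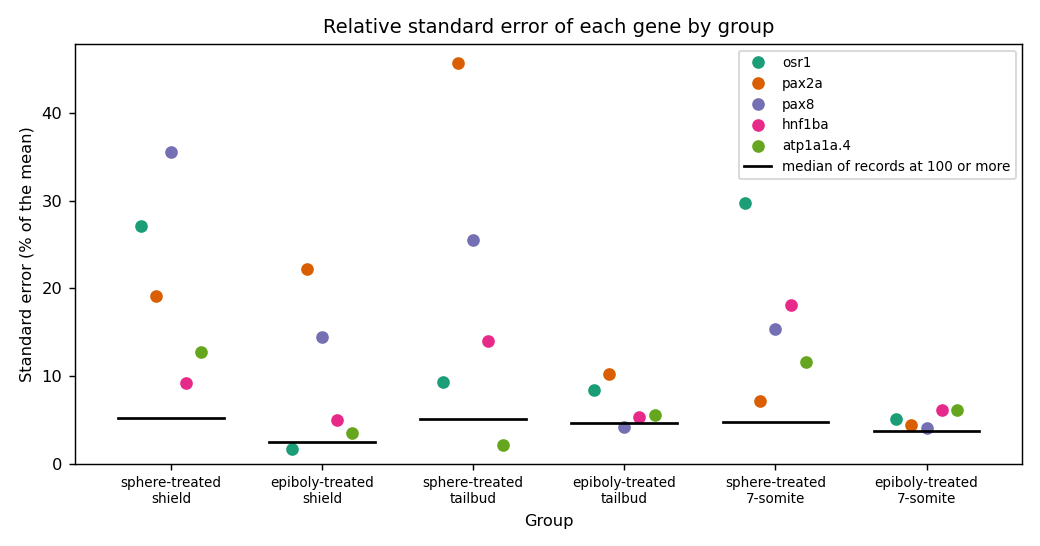
Standard error as a percentage of the mean for each of the 5 genes in the 6 groups (points), with the median over records at 100 or more (bars). The point at 45.7% is pax2a in sphere-treated tailbud embryos, and the points of pax2a and pax8 at shield come from means of 3 to 8.

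Other genes of kidney formation were read from a list of 58, of which 34 had values. At shield 8 rose and 6 fell, at tailbud 0 rose and 3 fell, and at 7-somite 3 rose and 4 fell. Over all genes the shares were 20.5% higher and 19.9% lower at shield, 0.249% and 1.74% at tailbud, and 5.91% and 8.81% at 7-somite. The list medians of the log2 ratio were 0.04, -0.09 and 0.10 at the 3 stages, against 0.0072, -0.0088 and -0.02 over all genes. The podocyte genes wt1a and nphs1 and the duct and tubule genes cdh17, ret and slc20a1a were among those listed that had no values. The 5 genes described above are left out of this list.

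Of the regulators in the list, those that fell at tailbud were lhx1a, foxc1a and irx3b. lhx1a, a LIM homeodomain gene of the kidney field that is also an organizer gene, stood at 4 ± 0.577 in sphere-treated and 77 ± 4.81 in epiboly-treated embryos (log2 ratio -3.19, limma-moderated adjusted p = 0.000134). foxc1a, a forkhead gene of podocytes and also of somites, stood at 99 ± 44.0 in sphere-treated and 1289 ± 110 in epiboly-treated embryos (log2 ratio -3.64, limma-moderated adjusted p = 0.017). irx3b, an Iroquois gene of distal tubule segments, was at 117 ± 16.4 in sphere-treated and 241 ± 0.667 in epiboly-treated embryos (log2 ratio -1.01, limma-moderated adjusted p = 0.0387). Each of these has sites outside the kidney. lhx1a passed the floor of the table only in epiboly-treated groups, so its lower values in sphere-treated embryos are partly fixed by that floor.

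At 7-somite lhx1a was again lower, at 33 ± 15.8 in sphere-treated and 200 ± 13.4 in epiboly-treated embryos (log2 ratio -2.43, limma-moderated adjusted p = 0.024). hnf1bb, the paralog of hnf1ba, was at 111 ± 27.5 in sphere-treated and 560 ± 22.1 in epiboly-treated embryos (log2 ratio -2.28, limma-moderated adjusted p = 0.00742). At tailbud it had been at 29 ± 9.14 in sphere-treated and 32 ± 5.18 in epiboly-treated embryos. Of these paralogs, hnf1ba was called lower at tailbud and not at 7-somite, and hnf1bb at 7-somite and not at tailbud. In the direct test, though, the change of the ratio from tailbud to 7-somite passed for neither. It was -2.16 for hnf1bb and 1.25 for hnf1ba (limma-moderated adjusted p = 0.0505 and 0.0709). The difference between the 2 genes was not tested.

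The motile cilia regulators foxj1a and foxj1b, which act in multiciliated cells of the tubule among other sites, also fell at 7-somite. foxj1a was at 99 ± 20.1 in sphere-treated and 286 ± 24.1 in epiboly-treated embryos, and foxj1b at 168 ± 4.84 in sphere-treated and 258 ± 34.4 in epiboly-treated embryos (limma-moderated adjusted p = 0.0163 and 0.0495). Higher at that stage were lrp2a, which encodes the endocytic receptor megalin, at 1499 ± 111 in sphere-treated and 966 ± 48.3 in epiboly-treated embryos, and the T-box gene tbx2a, at 981 ± 97.6 in sphere-treated and 666 ± 14.7 in epiboly-treated embryos (limma-moderated adjusted p = 0.0227 and 0.0373).

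Of the list's genes called at shield, tfap2a had the largest log2 ratio. Active in ectoderm and neural crest as well as in the distal nephron of zebrafish, it was at 6550 ± 935 in sphere-treated and 2735 ± 160 in epiboly-treated embryos (log2 ratio 1.26, limma-moderated adjusted p = 0.013). The podocalyxin gene podxl rose by 1.17 and lrp2a by 1.03 (limma-moderated adjusted p = 0.0284 and 0.0164), both at low means, 58 in sphere-treated and 23 in epiboly-treated embryos for podxl and 40 in sphere-treated and 17 in epiboly-treated embryos for lrp2a. The endocytic adaptor gene dab2 fell by 0.97 (limma-moderated adjusted p = 0.0169). lhx1a, at 44 ± 27.7 in sphere-treated and 181 ± 2.33 in epiboly-treated shield embryos, had a log2 ratio of -1.92 that did not pass (limma-moderated adjusted p = 0.0592).

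**Figure D4:**
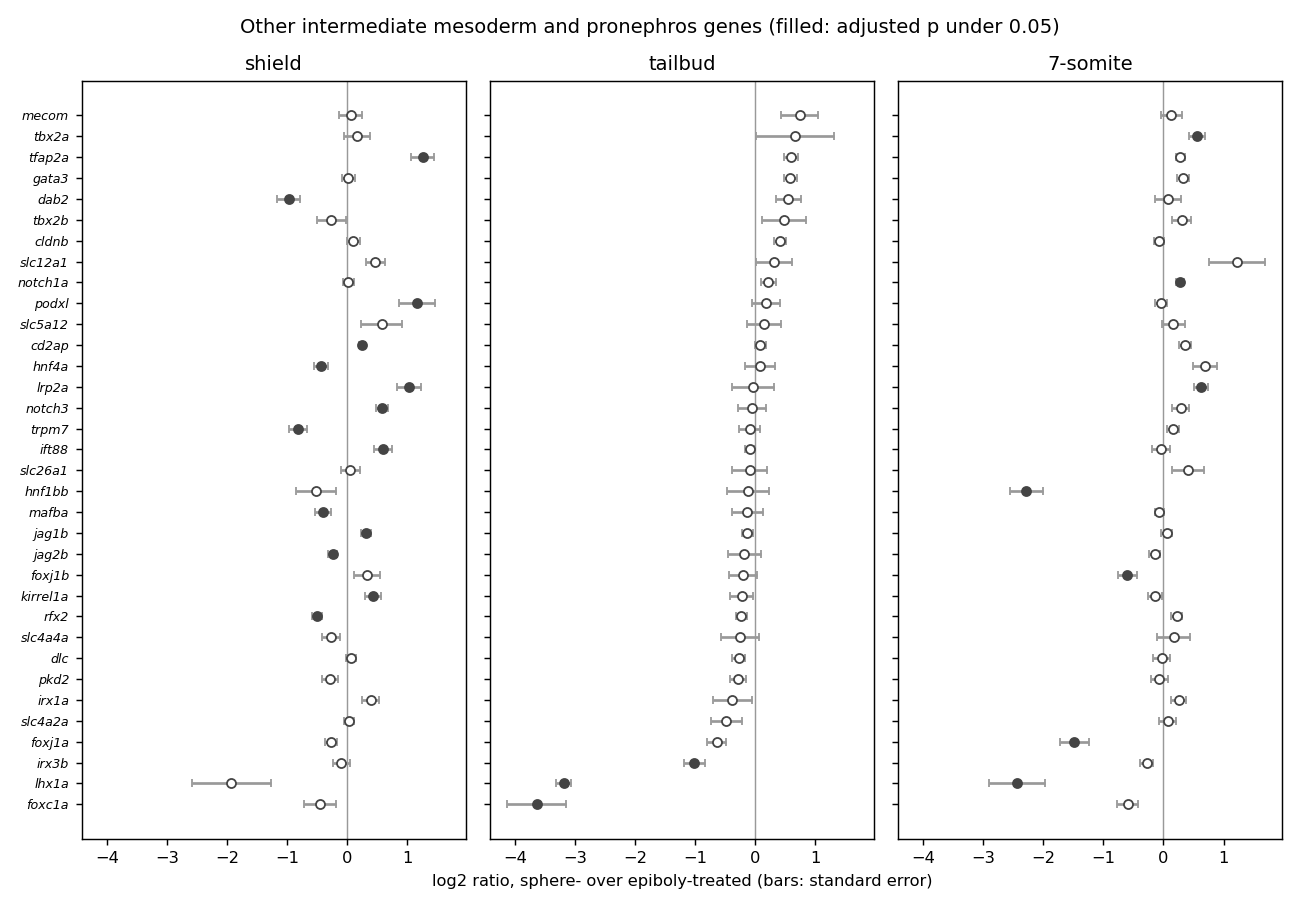
log2 ratio of sphere- over epiboly-treated means for the 34 other intermediate mesoderm and pronephros genes with values, at shield, tailbud and 7-somite, in order of the tailbud ratio, with standard errors as bars and filled points for an adjusted p under 0.05. At tailbud foxc1a, lhx1a and irx3b are the filled points, and all 3 lie below 0.

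Sodium pump genes were compared with atp1a1a.4. Of 15 listed subunit genes 8 had values. At shield 2 rose and 1 fell, against 20.5% of all genes higher and 19.9% lower, and at tailbud and 7-somite 0 passed the test. The beta subunit genes atp1b2a and atp1b3a rose at shield by 1.09 and 0.97 (limma-moderated adjusted p = 0.0129 and 0.0138), and atp1b3b fell by 0.69 (limma-moderated adjusted p = 0.0253). Among the alpha copies next to atp1a1a.4, atp1a1a.1 had log2 ratios of -0.06, 0.21 and 0.09 at the 3 stages. For atp1a1a.2 they were -0.14, 0.48 and 0.24, and for atp1a1a.3 they were -0.14, 0.32 and 0.07. The atp1a1a.4 log2 ratios were -0.33, 0.34 and 0.34, and 0 of the ratios of these 4 copies passed the test. The beta subunit gene atp1b1a had log2 ratios of -0.05, 0.13 and 0.05.

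Sites that share the 5 genes were read in the same way, as a description of what else these whole-embryo values hold. The lists overlap, so their counts are not independent. hnf1bb is in the kidney and caudal hindbrain lists, foxc1a in the kidney and paraxial lists, and hnf4a in the kidney and endoderm lists, among other shared genes. For these counts and those of the lists below, the shares over all genes were 20.5% higher and 19.9% lower at shield. They were 0.249% and 1.74% at tailbud, and 5.91% and 8.81% at 7-somite. Of 19 midbrain-hindbrain boundary genes 0 rose and 1 fell at tailbud, with a list median of -0.50. At 7-somite 0 rose and 1 fell, with a median of -0.01. The gene that fell at tailbud was il17rd, at 1222 ± 75.7 in sphere-treated and 1901 ± 81.2 in epiboly-treated embryos (limma-moderated adjusted p = 0.0477). The gene that fell at 7-somite was gbx2, at 479 ± 34.7 in sphere-treated and 760 ± 20.1 in epiboly-treated embryos (limma-moderated adjusted p = 0.0163). wnt1, a signal of that boundary, was at 104 ± 50.6 in sphere-treated and 194 ± 9.17 in epiboly-treated embryos at tailbud. It did not pass the test (log2 ratio -0.87, SE 0.53, limma-moderated adjusted p = 0.509). At that stage her5 was at 736 ± 26.5 in sphere-treated and 778 ± 24.3 in epiboly-treated embryos. her11 was at 356 ± 32.0 in sphere-treated and 354 ± 26.4 in epiboly-treated embryos, and neither passed. The boundary gene en2a was at 125 ± 68.6 in sphere-treated and 146 ± 31.2 in epiboly-treated tailbud embryos, and at 680 ± 36.8 in sphere-treated and 670 ± 17.6 in epiboly-treated embryos at 7-somite. At shield 4 of the list rose and 5 fell, which is near the shares over all genes. otx2b rose by 2.13 and fgf8a by 1.70 (limma-moderated adjusted p = 0.0135 and 0.0129). Those that fell were fgf17, il17rd, spry1, spry2 and spry4, by 0.62 to 0.85. At that stage wnt1 had a mean of 3 in both sphere- and epiboly-treated embryos, and en2a 1 in sphere-treated and 2 in epiboly-treated embryos. The shield changes of the list therefore cannot be read as changes at the boundary.

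For pax8, the ear and preplacodal list had 15 genes with values. At tailbud 3 rose and 1 fell, with a median of 0.08, and at 7-somite 2 rose and 2 fell, with a median of -0.04. foxi1, which acts upstream of pax8 in the zebrafish ear, was at 2721 ± 358 in sphere-treated and 1470 ± 18.8 in epiboly-treated tailbud embryos and did not pass the test (log2 ratio 0.89, limma-moderated adjusted p = 0.0587). The genes that rose at tailbud were dlx3b, tfap2c and gata2a. Their means were 5706, 13232 and 6696 in sphere-treated and 3399, 8864 and 3792 in epiboly-treated embryos (limma-moderated adjusted p = 0.0206, 0.0375 and 0.0402). six4a fell at tailbud, with 17 ± 10.6 in sphere-treated and 198 ± 2.03 in epiboly-treated embryos (limma-moderated adjusted p = 0.041). At shield 9 of the 15 rose, led by dlx3b, and 5 fell, against 20.5% of all genes higher and 19.9% lower.

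For hnf1ba, the caudal hindbrain list had 15 genes with values. At tailbud 1 rose and 4 fell, with a median of -1, and at 7-somite 1 rose and 4 fell, with a median of -0.38. hoxb1a, which marks a hindbrain segment, was at 29 ± 8.74 in sphere-treated and 211 ± 10.3 in epiboly-treated tailbud embryos (log2 ratio -2.67, limma-moderated adjusted p = 0.00791). The endoderm list had 11 genes with values, of which 0 rose and 2 fell at tailbud and 0 rose and 2 fell at 7-somite. At both stages these 2 were sox17 and foxa2, which passed the floor of the table only in epiboly-treated groups. Their calls are therefore partly fixed by that floor. At shield 0 rose and 5 fell in the endoderm list, and 3 rose and 2 fell in the caudal hindbrain list. Over all genes 20.5% were higher and 19.9% lower at shield, and the caudal hindbrain count is near these shares. At tailbud foxa2, a gene of the midline as well as of endoderm, was at 7 ± 2.19 in sphere-treated and 402 ± 47.6 in epiboly-treated embryos. Its log2 ratio was the lowest of the endoderm list, whose tailbud median was -0.58. Above 0 at tailbud, and not called, were gata6 (0.13), cxcr4a (0.42), hnf4a (0.08) and onecut1 (0.76), and the others were below 0. The part that hindbrain and endoderm have in the hnf1ba values was not tested.

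Tissues on either side of the intermediate mesoderm were set beside osr1. In the paraxial list 9 of 18 genes fell and 0 rose at tailbud, with a median of -2.11, and 2 fell at 7-somite, with a median of -0.11. In the lateral plate, heart, blood and endothelium list 1 of 13 fell and 0 rose at tailbud, with a median of -0.25, and 8 fell and 1 rose at 7-somite, with a median of -1.50. The gene that fell at tailbud was tbx1. Among those that fell at 7-somite, tbx1, tal1, gfi1aa and fli1 passed the floor of the table only in epiboly-treated groups. The 7-somite count and median of this list are therefore partly fixed by that floor. At shield 2 rose and 6 fell in the paraxial list, and 2 rose and 2 fell in the lateral plate list. Over all genes 20.5% were higher and 19.9% lower at shield, and the lateral plate count is near these shares. At 7-somite the blood regulator tal1 was at 80 ± 26.9 in sphere-treated and 610 ± 47.8 in epiboly-treated embryos, and at tailbud it was at 22 ± 2.96 in sphere-treated and 27 ± 1 in epiboly-treated embryos. osr1 was lower at both stages, as the values above show.

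Retinoic acid, made in paraxial mesoderm, is a patterning signal for the zebrafish pronephros. Of 18 genes of its synthesis, turnover, binding proteins, receptors and cofactors 0 rose and 6 fell at tailbud, with a median of -0.47, and 1 rose and 0 fell at 7-somite. The synthesis gene aldh1a2 was at 83 ± 22.4 in sphere-treated and 1209 ± 119 in epiboly-treated tailbud embryos (log2 ratio -3.79, limma-moderated adjusted p = 0.00216). At 7-somite it was at 483 ± 141 in sphere-treated and 578 ± 21.0 in epiboly-treated embryos. The ratios of pax8 and osr1 were also lowest at tailbud, and the part of retinoic acid in the kidney values was not tested. At shield 5 genes of the list rose and 2 fell, against 20.5% of all genes higher and 19.9% lower.

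**Figure D5:**
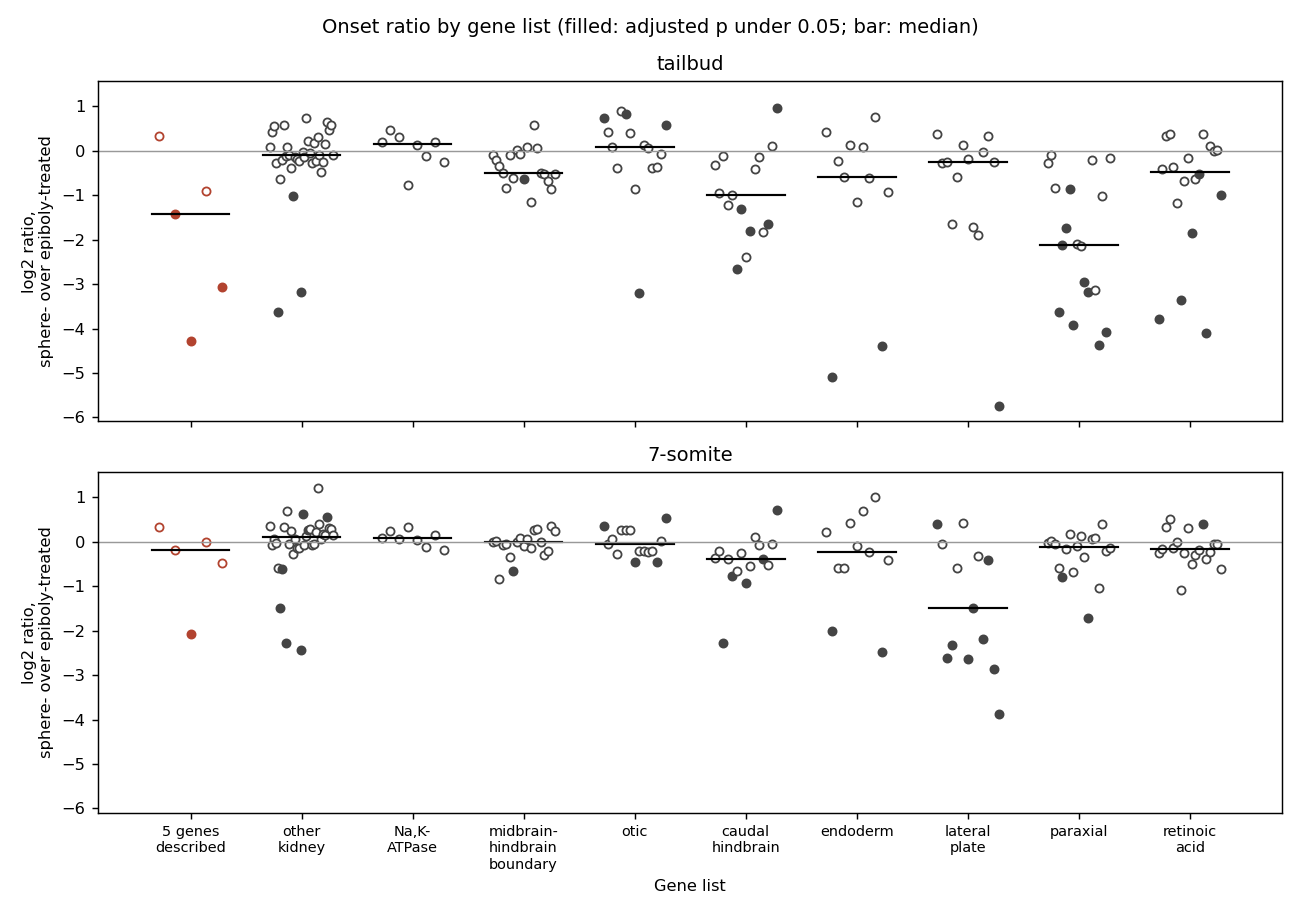
log2 ratio of sphere- over epiboly-treated means at tailbud (top) and 7-somite (bottom) for the 5 genes described (red) and for 9 other gene lists (grey), each point a gene, filled where the adjusted p was under 0.05, with a bar at the list median. At tailbud the medians of the 5 genes and of the paraxial list are -1.43 and -2.11, and at 7-somite the lateral plate list has the lowest median, -1.50. Some genes of that list passed the floor of the table only in epiboly-treated groups.

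The genes whose course over the 6 groups was most like that of each gene were found by the root mean square distance between centred log2 values. For osr1 they were rdh10a, which encodes a retinol dehydrogenase (distance 0.54, Pearson's r = 0.92), elapor1 (0.58) and the chemokine gene cxcl12a (0.61), with a median distance of 1.46 to all genes. The nearest to pax2a were hoxc3a (0.20, r = 0.998), hoxc8a (0.31) and the BMP-family gene bmp3 (0.32), against a median of 3.33. Those nearest to pax8 were the myogenic factor gene myf5 (0.26, r = 0.996), hoxb1a (0.33) and lsp1a (0.38), against a median of 2.65. At tailbud myf5 was at 47 ± 23.7 in sphere-treated and 395 ± 32.4 in epiboly-treated embryos.

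For hnf1ba those nearest included the Hedgehog response gene gli1 (0.26, r = 0.89) and ctbp1 (0.26), against a median of 0.67. gli1 was at 217 ± 26.5 in sphere-treated and 490 ± 24.9 in epiboly-treated tailbud embryos. For atp1a1a.4 they included zc3h3 (0.09) and lsr (0.09), against a median of 0.46. These are likenesses over 6 means that share stages, given as a description.

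Among the 5 genes themselves, pax2a and pax8 were the closest in correlation (r = 0.92 over the 6 groups, distance 1.32), and osr1 and hnf1ba came next (r = 0.75, distance 1.08). The likeness of pax2a and pax8 rests in part on their shared start near 0 at shield. By distance the closest were hnf1ba and atp1a1a.4 (0.72), although their r was -0.50. Of all genes, 53.9% were nearer to hnf1ba than that, so this pair was not unusually close. hnf1ba and pax8 had r = 0.74. atp1a1a.4 had negative correlations with the other 4, some of them weak, with r between -0.73 and -0.26. The 5 genes therefore did not share 1 course: the paired-box genes started near 0 and climbed, osr1 and hnf1ba peaked at tailbud in epiboly-treated embryos, and atp1a1a.4 was highest at shield there.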

How the data were processed

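The authors deposited upper-quartile normalized (UQN) group means, which are scores on a normalized scale rounded to whole numbers, and beside each mean its standard error, another score in these normalized units, per the file headers. Their table also holds a ratio, which the authors formed as the epiboly-treated mean + 1 over the sphere-treated mean + 1 (13321 of 13321 records match to the third decimal for every stage), and marks records that differ at a 50% change. The submitters' processing notes list DESeq 1.6.1 without saying what it was used for. An aligner, a counter and a build are not given in the sources consulted. Depth is unknown, so intervals cover only the spread that the deposited errors hold.

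Records took symbols from the RefSeq gene table of GRCz12tu, 12182 by gene identifier and 42 by accession, and 1097 kept their accession. The record with the highest mean was kept for each symbol, which set 47 aside. The variance of log2(mean + 5) was taken from the deposited errors by the delta method and moderated with squeezeVar of limma 3.58.1 in R 4.3.3. Tests are two-sided, adjusted by Benjamini-Hochberg over 13274 genes, and were tested on simulated data. The genes and lists were chosen with earlier results of these data known. Beyond the 5 genes, the text names by rule the kidney and pump genes with the largest called ratios (up to 6 a stage), up to 3 per other list, and the 3 nearest courses per gene, of which some are not reported here; wnt1, en2a, foxi1, the boundary genes that fell at shield, the remaining alpha and beta pump genes and values of named genes at other stages were added after their values were seen, for their known roles. No sequences are shown.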

Additional observations from a re-analysis of the deposited data

Results flagged for a closer look

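The onset ratio of 4 of the 5 genes differed between stages by a direct test, and these are the results a reader may want to look at again. Between shield and tailbud the log2 ratio changed by -3.35 for osr1, -3.59 for pax8, -0.92 for hnf1ba and 0.67 for atp1a1a.4. Between tailbud and 7-somite it changed by 2.22 for osr1 and 2.59 for pax8. Without limma's moderation the calls of hnf1ba and atp1a1a.4 over the first step and of osr1 over the second are lost (adjusted p = 0.0517, 0.059 and 0.056). Among all genes 12% had a called drop and 8.02% a called rise over the first step, and 0.716% a drop and 1.31% a rise over the second. The pax8 ratio at shield rests on means of 8 in sphere-treated and 4 in epiboly-treated embryos.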

How the results depend on the processing

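Of the 445 log2 ratios of the 5 genes recomputed under other settings, 408 held their sign and their side of the threshold. Without moderation of the variance the counts of the 5 genes called were 0 at shield, 1 at tailbud and 0 at 7-somite, 1 for tailbud to 7-somite in sphere-treated and 2 in epiboly-treated embryos, and 2 and 1 for the differences between stages. All-gene counts then were 1434, 42 and 697 for the onset at the 3 stages. With the spread pooled over the 6 groups, 1 of the 5 was called at shield (osr1, with the pax2a and hnf1ba calls lost) and 2 for tailbud to 7-somite in epiboly-treated embryos, and 852 of all genes at tailbud and 627 for the later stage difference. With a variance trend on the mean, chosen after seeing the data, 403 genes were called at tailbud, 3052 at 7-somite and 447 for the later difference. Signs that turned were all of uncalled values. The pax2a ratio at 7-somite was 0.019 with TMM factors and 0.059 with equal totals, and over the 3 stages 0.085 with a pseudocount of 1. The sphere-treated step from shield to tailbud was 0.20 (TMM) and 0.28 (equal totals) for hnf1ba and 0.013 (equal totals) for atp1a1a.4. The later stage difference of atp1a1a.4 was 0.0036 with a pseudocount of 20, 0.001 with TMM factors and 0.066 with equal totals. The causes were not tested. No paired analysis was possible because the table holds 1 mean per group and no replicate numbers, and for the same reason no replicate could be left out.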
